A study of Daphnia magna with 335 samples.

Results

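Among 2378 probes read in whole Daphnia magna, 860 (36.16%) were nearly silent in solvent, and 24 of these held a signal in every pool of at least 1 chemical treatment. A probe was called nearly silent where its mean over 36 pools in dimethyl sulfoxide (DMSO) was under 5 CPM (counts per 1000000 of the library total). It was called switched on in a treatment where each pool of that treatment held 10 CPM or more. The 24 probes belonged to 24 different gene identifiers. They were chosen by these same values, so their levels in the treatments that chose them are a description and carry no test.

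The animals, small planktonic crustaceans of fresh water and a standard species in toxicity tests, were kept for 24 h with 1 of 12 chemicals at 8 concentrations, coded D1 (highest) to D8 (lowest), or in DMSO alone, which the treated wells also held at a matched level. The chemicals were 2-tert-Butyl-4-methoxyphenol, Metribuzin-DA, 3,4-Dichlorophenyl isocyanate, Metolachlor OA, cis-Nonachlordane, Hydrochlorothiazide, 4-Chlorophenyl methyl sulfoxide, Cetirizine, Fexofenadine, 1(2H)-Phthalazinone, Gabapentin and Fipronil amide. Most series ran up to 66.67 µM and down to 0.021 µM, those of Fexofenadine and Fipronil amide from 34.2 and 56.43 µM. Each library was a pool of 5 animals from 1 plate, less any that had died, with 3 pools (A, B and C) for each concentration and 2 for 3,4-Dichlorophenyl isocyanate at 66.67 µM. Chemicals were run in pairs, in 6 exposures with 6 DMSO pools apiece, of which 3 were labelled CON and 3 XtraC. There were also 12 libraries that the labels name control QA, with no statement of what they hold. Replicate C of 3,4-Dichlorophenyl isocyanate at 21.1 µM, with a total of 118094 counts, was left out, so that concentration had 2 pools here. Totals of the other libraries ran from 167462 to 1171681 counts.

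The assay, TempO-Seq, joins a pair of detector oligonucleotides where both sit side by side on their target transcript, then amplifies and counts the joined pair. A probe with hardly any count in control animals can stand for a gene that is not transcribed there, for one used in few cells, or for an oligonucleotide pair that joins poorly, so a level is comparable between samples of 1 probe and not between probes. Whole-animal RNA was read, in which more cells of a type and more RNA per cell cannot be told apart. The deposited tables give identifiers without gene names, and 0 were matched to a name here, so the probes are given by identifier and no role is stated for any of them.

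The 24 probes were switched on 37 times, counting each probe in each treatment, among 82560 pairs of a nearly silent probe and a treatment (0.0448%). Of all nearly silent probes the 24 made up 2.79%. They were on in 19 of the 96 treatments and with 9 of the 12 chemicals. Where the same measure was taken over 12 groups of 3 DMSO pools, 0 of 10320 pairs reached it; the limit on the DMSO mean itself acts against such a pair. The 12 control QA libraries had no part in the choice, and in 4 groups of 3 of them 0 of 3440 pairs reached it. A rate as low as 0.0448% would give few among 3440 pairs, so this 0 does not set them apart from the treatments.

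The switch-ons were unevenly spread over chemicals. 2-tert-Butyl-4-methoxyphenol, a synthetic phenol that is added to foods against oxidation, accounted for 11, of which 8 were at 66.67 µM. Metribuzin-DA, a breakdown product of a herbicide, accounted for 9, with 5 at 0.067 µM and 3 at 2.113 µM. 3,4-Dichlorophenyl isocyanate, a reactive chemical intermediate, had 5 switch-ons of 3 probes, and Metolachlor OA, an acid that forms when the herbicide metolachlor breaks down, had 4. The 3 switch-ons of cis-Nonachlordane, an organochlorine of the chlordane mixture, were all at 0.669 µM. Hydrochlorothiazide, a diuretic, had 2, and 4-Chlorophenyl methyl sulfoxide and the antihistamines Cetirizine and Fexofenadine had 1 each. With 1(2H)-Phthalazinone, Gabapentin and Fipronil amide there were 0.

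Concentration did not order them in a simple way. From the lowest level, D8, to the highest, D1, the switch-ons numbered 5, 8, 1, 3, 4, 3, 3 and 10. By exposure, 20 of the 37 fell in the one that held Metribuzin-DA and 2-tert-Butyl-4-methoxyphenol, and 9 in the one that held Metolachlor OA and 3,4-Dichlorophenyl isocyanate. Most probes, 14 of 24, were on in a single treatment, 8 were on in 2, 1 in 3 and 1 in 4. Among the 24, 9 were on with 2 or more chemicals and 5 of these in 2 or 3 separate exposures.

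**Figure D1:**
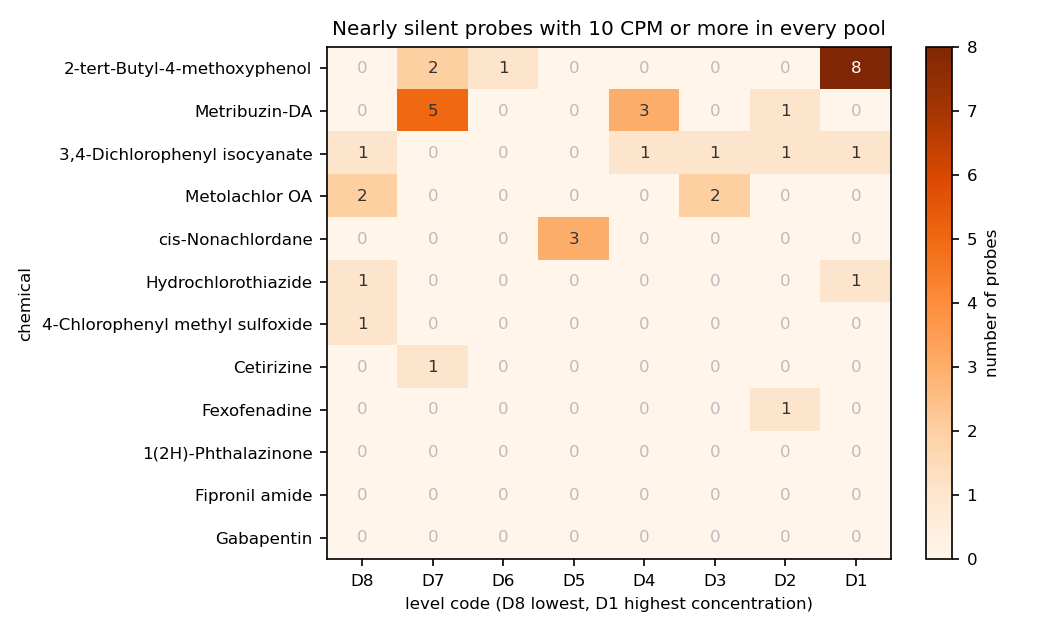
Number of nearly silent probes with 10 CPM or more in every pool, for each chemical (rows) and level code (columns, lowest concentration D8 at the left, highest D1 at the right). The largest cell is 2-tert-Butyl-4-methoxyphenol at D1 with 8 probes, followed by Metribuzin-DA at D7 with 5, and the last 3 rows hold 0 throughout.

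Most of these signals were faint. The mean over the pools of a switch-on ran from 12.7 to 149.9 CPM with a median of 22.3, and 6 switch-ons of 4 probes had a mean over 50 CPM. In 24 of the 37 the poorest pool held fewer than 10 counts, and the lowest count in any was 5. In the shallowest library of a switch-on, which had 227676 counts, a single count is worth 4.39 CPM. The probes were also not at rest in DMSO. Their means over the 36 DMSO pools ran from 0.619 to 4.87 CPM with a median of 3.90, against a median of 0.528 over all 860 nearly silent probes, and 20 of the 24 had 3 CPM or more, against 77 of the 860. At least 1 DMSO pool reached 10 CPM for 20 of the 24 probes, a share that was not computed over the 860. Set against the 6 DMSO pools of their own exposure, 25 switch-ons of 19 probes had every treated pool above every DMSO pool, and 12 overlapped with them. The limits of the choice favour such a separation, and its share over all probes was not computed. In 18 of the 37, from 13 probes, the DMSO mean of the same exposure was under 5 CPM as well; in the rest the probe had 5 CPM or more there. Of the 37 switch-ons, 28 of 19 probes passed the filter on low counts in the count model of their chemical and its DMSO pools. The pools that chose a probe can carry it through that filter, so passing it is no further evidence. For 2-tert-Butyl-4-methoxyphenol the filter kept 1471 of the 2378 probes.

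The limits of the choice cut through a continuous range. Just inside the DMSO limit stood Dapma7bEVm002904_97716 at a DMSO mean of 4.87 CPM and Dapma7bEVm027382_98071 at 4.76 CPM. Just outside it stood Dapma7bEVm006767_96182 at 5.33 CPM, which held at least 11.8 CPM in every pool of 3,4-Dichlorophenyl isocyanate at 6.677 µM, and Dapma7bEVm018438_97851 at 5.37 CPM, with at least 12.7 CPM at 2.113 µM of Metribuzin-DA. Just inside the limit on pools stood Dapma7bEVm028505_97075 and Dapma7bEVm003803_96467, whose lowest pool held 10.7 CPM. Dapma7bEVm004695_96654 missed it with 9.67 CPM in its lowest pool, at 0.212 µM of cis-Nonachlordane, and Dapma7bEVm018587_96127 with 9.62 CPM at 0.212 µM of Hydrochlorothiazide.

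Dapma7bEVm003956_96116 was on in 4 treatments with 3 chemicals from 3 exposures, the widest range of the 24. At 6.677 µM of 3,4-Dichlorophenyl isocyanate its pools held 114.1, 131.2 and 204.5 CPM, against 0.700 ± 0.782 CPM in the DMSO pools of that exposure (SD, n = 6), which held 3 counts in all. The ratio of summed counts, scaled by the totals, was 196 (95% counting interval 66.4 to 956). At 21.1 µM the 2 pools held 89.6 and 54.6 CPM, a ratio of 89.9 (29.4 to 447). These intervals, like all counting errors here, cover the counting of reads alone, and amplified reads without molecular identifiers are not independent molecules. They leave out the spread between pools and the choice of the probe by these same pools, so they bound no effect of the chemical.

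The course of Dapma7bEVm003956_96116 over 3,4-Dichlorophenyl isocyanate had its highest pools in the middle of the upper range. From 0.021 to 2.113 µM its means lay between 1.24 and 4.08 CPM, and at 66.67 µM its 2 pools held 8.60 and 43.9 CPM, so the probe was not on there by the rule. With 2-tert-Butyl-4-methoxyphenol it was on at the highest concentration alone. Its pools at 66.67 µM held 107.1, 133.6 and 131.9 CPM, against 3.39 ± 1.13 CPM in DMSO (SD, n = 6). One step lower, at 21.1 µM, they held 11.2, 30.4 and 7.33 CPM, and the lowest of these still lay above the highest DMSO pool, at 4.51 CPM. From 0.021 to 6.677 µM the means were 3.82 to 6.91 CPM.

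Hydrochlorothiazide gave Dapma7bEVm003956_96116 a smaller signal, with 10.8, 30.9 and 25.3 CPM at 66.67 µM, against 6.46 ± 2.61 CPM in DMSO (SD, n = 6; highest pool 9.48 CPM). At its 7 lower concentrations the means were 2.49 to 6.25 CPM. The probe was not silent in every control pool: replicate C of the CON pools in the exposure of cis-Nonachlordane and Fexofenadine held 34.0 CPM, above the 3 pools just named. That was the only one of the 36 DMSO pools at 10 CPM or more. In the 275 treated pools outside its switch-ons, 23 reached 10 CPM. The 12 control QA libraries held at most 6.32 CPM.

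**Figure D2:**
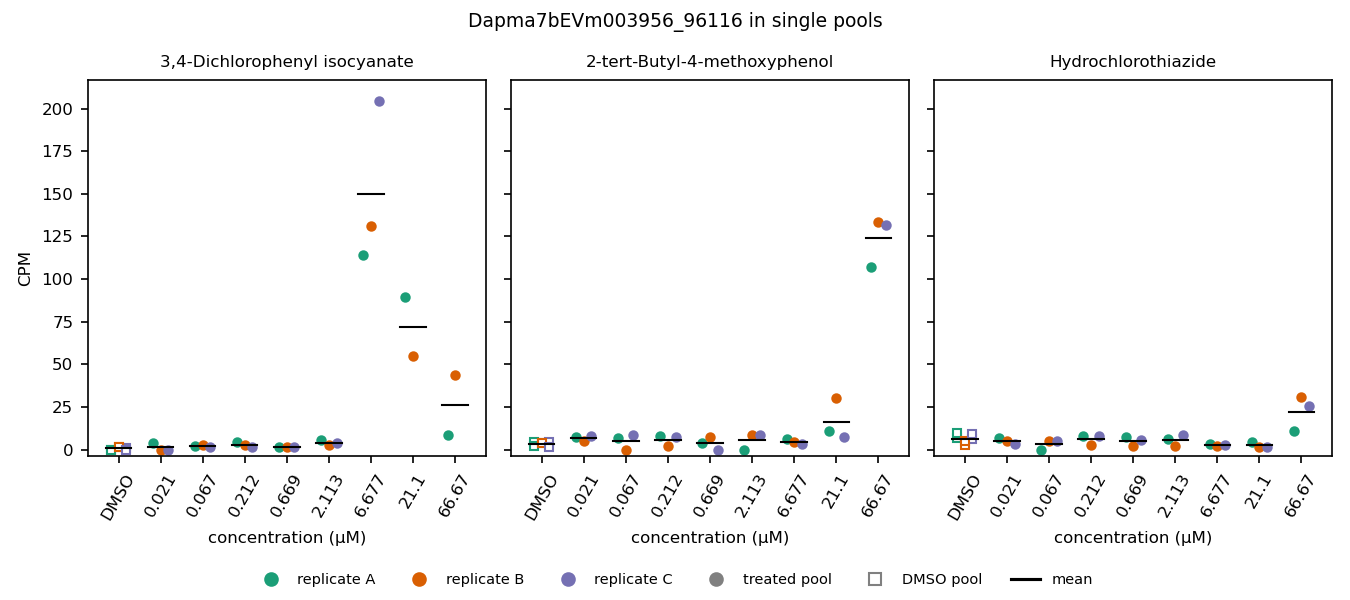
CPM of Dapma7bEVm003956_96116 in single pools (points, coloured by replicate letter; open squares are DMSO pools of the same exposure; black lines are means) over concentration in µM for 3 chemicals, with DMSO at the left. Pools reach 204.5 CPM at 6.677 µM of 3,4-Dichlorophenyl isocyanate and 133.6 CPM at 66.67 µM of 2-tert-Butyl-4-methoxyphenol, and 30.9 CPM at 66.67 µM of Hydrochlorothiazide.

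Dapma7bEVm012204_97889 had the fewest high pools outside its switch-on. At 66.67 µM of 2-tert-Butyl-4-methoxyphenol its pools held 125.6, 91.2 and 25.5 CPM, against 1.52 ± 1.34 CPM in DMSO (SD, n = 6; highest pool 3.39 CPM). All 3 treated pools lay above the DMSO pools, though they spread almost 5-fold among themselves. At 21.1 µM pool A held 11.2 CPM, pool B 0 and pool C 1.47 CPM. Of the 283 treated pools outside the switch-on, that pool A was the single one at 10 CPM or more, and 208 held no count. The probe had 13 counts over all 36 DMSO pools, 25 of which held none, and at most 2.58 CPM in the control QA libraries.

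A further pair of probes held more than 25 CPM in all pools at 66.67 µM of 2-tert-Butyl-4-methoxyphenol. Dapma7bEVm002904_97716 held 96.8, 47.2 and 75.2 CPM, against 8.03 ± 2.65 CPM in DMSO (SD, n = 6; highest pool 12.2 CPM). At 21.1 µM it stood at 10.2 ± 2.24 CPM (SD, n = 3), within the range of the DMSO pools. Dapma7bEVm012300_95854 held 30.9, 28.3 and 31.2 CPM at 66.67 µM, against 5.04 ± 3.64 CPM in DMSO (highest pool 10.8 CPM), and 8.21 ± 2.71 CPM at 21.1 µM (n = 3). Its 3 pools agreed more closely than those of the other probes above 25 CPM there. Dapma7bEVm002904_97716 was also on at 0.067 µM of Cetirizine, with 10.99, 12.1 and 16.3 CPM, against 4.69 ± 4.65 CPM in the DMSO pools of that exposure, of which the highest held 12.6 CPM and overlapped with the treated ones.

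Dapma7bEVm002734_96771, Dapma7bEVm027382_98071, Dapma7bEVm027575_97606 and Dapma7bEVm000023_95812 completed the set at 66.67 µM of 2-tert-Butyl-4-methoxyphenol, with means of 12.9 to 16.5 CPM, against 1.12 to 5.38 CPM in DMSO. For all 4 every treated pool lay above every DMSO pool, but the pools held only 6 to 14 counts each. Dapma7bEVm027382_98071 and Dapma7bEVm027575_97606 were also both on at the lowest concentration of Metolachlor OA, 0.021 µM. There Dapma7bEVm027382_98071 held 24.7, 20.3 and 21.5 CPM, against 9.43 ± 2.75 CPM in the DMSO pools of that exposure (SD, n = 6; highest pool 14.6 CPM). Dapma7bEVm027575_97606 held 14.8, 16.9 and 10.7 CPM, against 7.09 ± 2.67 CPM with a highest pool of 12.0 CPM. In the exposure of 2-tert-Butyl-4-methoxyphenol the DMSO means of this pair were lower, 1.85 and 1.12 CPM.

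**Figure D3:**
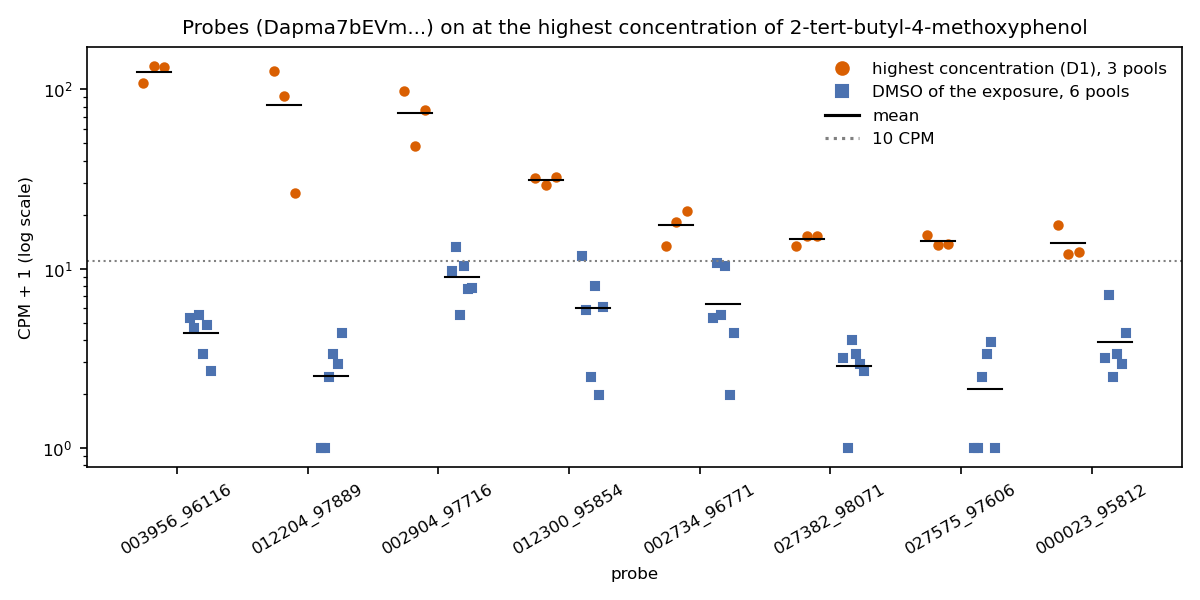
CPM + 1 on a log scale of the 8 probes on at the highest concentration of 2-tert-Butyl-4-methoxyphenol, 66.67 µM, in its 3 pools (orange, left) and the 6 DMSO pools of the exposure (blue, right), with means as black lines and a dotted line at 10 CPM. The treated pools of each probe lie above all its DMSO pools, from 133.6 CPM at the left to 16.5 CPM or less for Dapma7bEVm000023_95812 at the right.

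Of the 9 switch-ons of Metribuzin-DA, 3 were at 2.113 µM, 5 at 0.067 µM and 1 at 21.1 µM. Dapma7bEVm019556_96084 held 72.7, 39.7 and 34.9 CPM at 2.113 µM, against 2.54 ± 2.83 CPM in DMSO (SD, n = 6; highest pool 7.31 CPM). Its means at 6.677, 21.1 and 66.67 µM were 1.65, 0.379 and 0.741 CPM, so the 3 higher concentrations stood under the DMSO mean. The same probe was on at 0.212 µM of 2-tert-Butyl-4-methoxyphenol, tested alongside, where the pools held 44.8, 72.5 and 12.7 CPM; the last of these rested on 5 counts. Pools at other concentrations of both chemicals were also high, such as pool C of Metribuzin-DA at 0.212 µM with 34.0 CPM, beside 0 in pool A and 3.31 CPM in pool B. With 2-tert-Butyl-4-methoxyphenol pools A and B held 23.3 and 14.8 CPM at 0.067 µM, beside 0 in pool C. Its pool B at 0.021 µM, C at 0.669 µM and A at 6.677 µM held 18.2, 11.5 and 17.9 CPM. In all, 9 of the 280 other treated pools of Dapma7bEVm019556_96084 reached 10 CPM, and 0 of the 36 DMSO pools.

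Dapma7bEVm020579_98033 and Dapma7bEVm017152_96982 were on at the same 2.113 µM of Metribuzin-DA. Dapma7bEVm020579_98033 held 35.8, 34.5 and 18.1 CPM, against 2.90 ± 3.62 CPM in DMSO (SD, n = 6; highest pool 9.33 CPM), and 0 counts in all 3 pools at 6.677 µM. With 2-tert-Butyl-4-methoxyphenol at 0.212 µM it stood at 6.18, 15.3 and 27.8 CPM, short of the limit in 1 pool. Dapma7bEVm017152_96982 held 19.6, 16.6 and 14.2 CPM at 2.113 µM of Metribuzin-DA and 15.2, 10.8 and 18.0 CPM at 0.067 µM, against 1.77 ± 1.28 CPM in DMSO (SD, n = 6; highest pool 3.85 CPM). Both its switch-ons lay above all 6 DMSO pools of the exposure, while DMSO pools of other exposures reached 10.2 CPM.

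At 0.067 µM, the level next to the lowest, the co-tested chemicals switched on an overlapping set. With Metribuzin-DA the probes were Dapma7bEVm028301_96390, Dapma7bEVm009530_97988, Dapma7bEVm028505_97075, Dapma7bEVm003803_96467 and Dapma7bEVm017152_96982, and with 2-tert-Butyl-4-methoxyphenol the first 2 of these. Both treatments share their DMSO pools. Dapma7bEVm028301_96390 held 13.7, 51.8 and 39.7 CPM with Metribuzin-DA and 13.99, 77.9 and 35.1 CPM with 2-tert-Butyl-4-methoxyphenol, against 10.9 ± 5.85 CPM in DMSO (SD, n = 6), where the highest pool held 21.0 CPM. The A pools lay within the DMSO range for both chemicals, and the B and C pools above it.

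Dapma7bEVm009530_97988 showed the same order of pools, with 10.7, 71.2 and 43.3 CPM with Metribuzin-DA and 13.99, 29.7 and 22.0 CPM with 2-tert-Butyl-4-methoxyphenol, against 4.66 ± 4.08 CPM in DMSO (SD, n = 6; highest pool 11.7 CPM). Dapma7bEVm028505_97075 held 10.7, 110.0 and 32.5 CPM with Metribuzin-DA, against 5.44 ± 2.45 CPM in DMSO, and its SD of 52.2 CPM over the 3 treated pools was as large as their mean of 51.1 CPM. Dapma7bEVm003803_96467 held 10.7, 15.1 and 21.7 CPM, against 6.75 ± 3.97 CPM in DMSO with a highest pool of 11.9 CPM. The C pools at 0.067 µM were among the shallow libraries, with 277137 counts for Metribuzin-DA and 227676 for 2-tert-Butyl-4-methoxyphenol, each under 50% of the median total of the exposure. The part of depth in these values was not tested. Pool A of Metribuzin-DA at 66.67 µM, another shallow library with 290124 counts, held 44.8 CPM of both Dapma7bEVm028301_96390 and Dapma7bEVm009530_97988, beside at most 5.40 CPM in pools B and C.

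**Figure D4:**
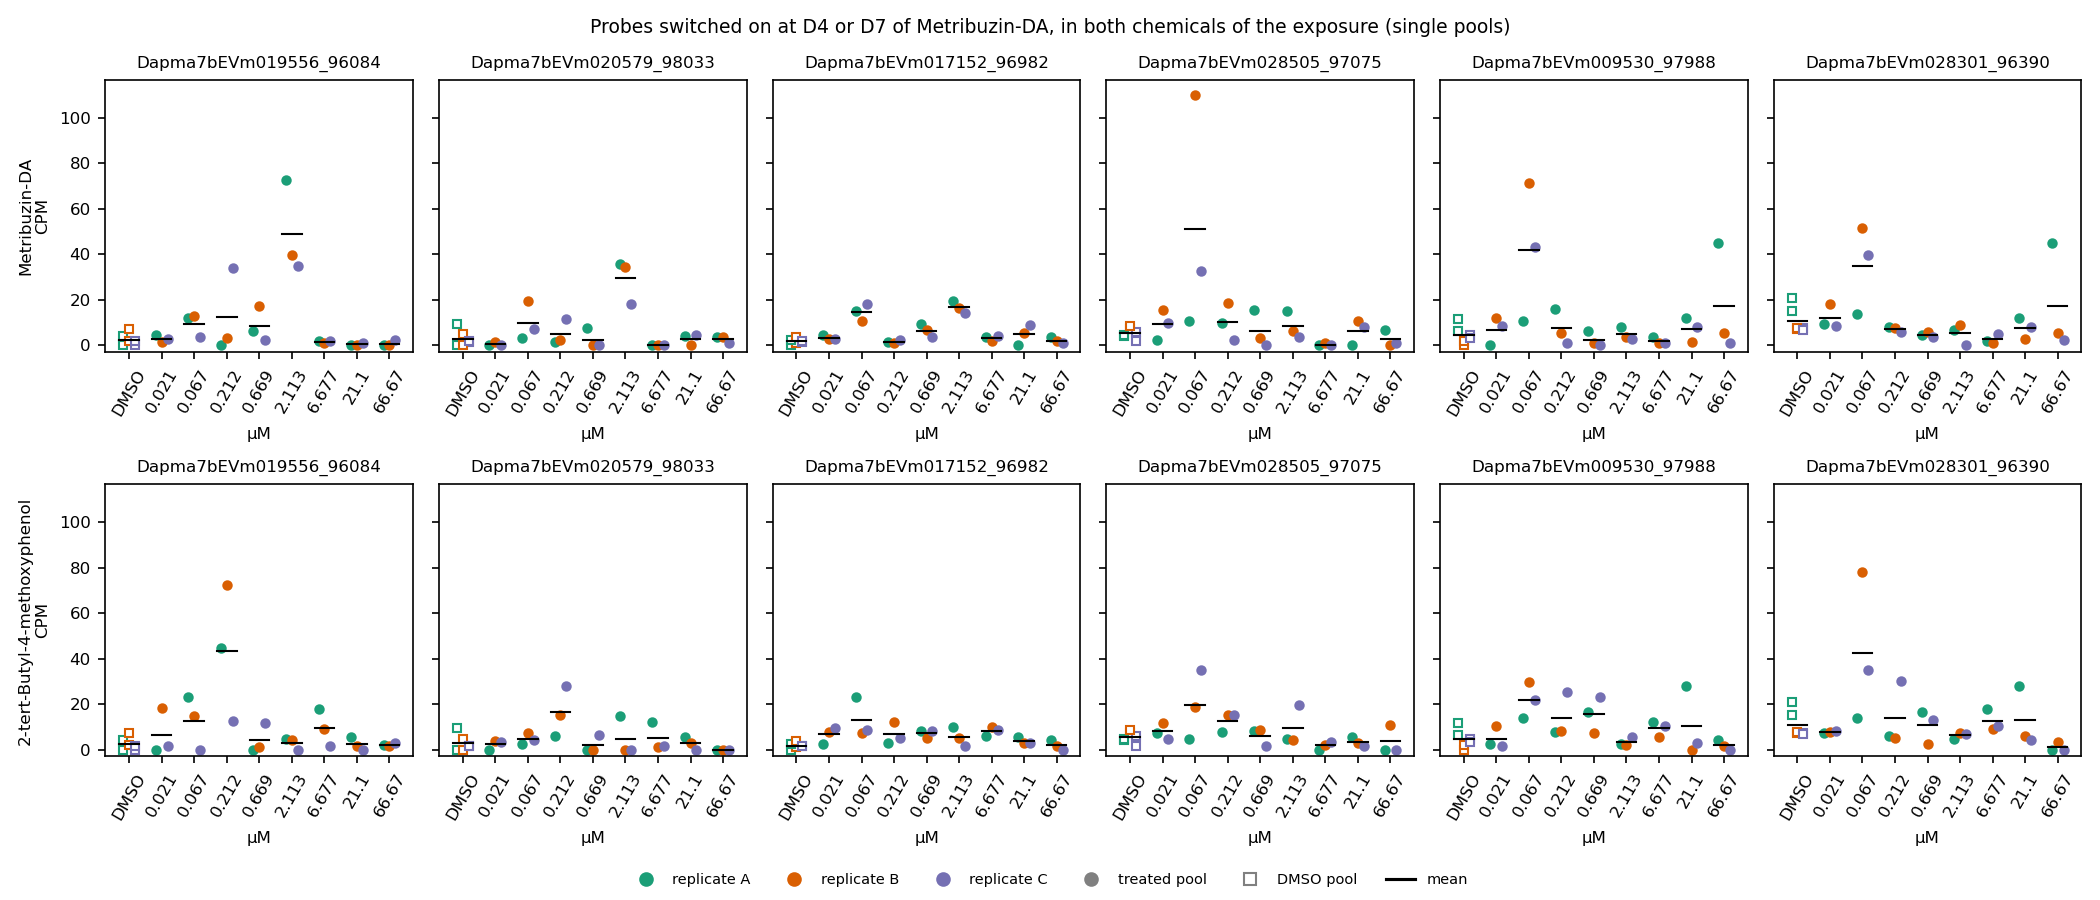
CPM of 6 probes (columns) in single pools over concentration in µM for Metribuzin-DA (upper row) and the co-tested 2-tert-Butyl-4-methoxyphenol (lower row), with the 6 shared DMSO pools at the left of each panel; colours mark the replicate letter and black lines the means. Dapma7bEVm019556_96084 and Dapma7bEVm020579_98033 stand out at 2.113 µM of Metribuzin-DA, and the last 3 probes at 0.067 µM, where pool B of Metribuzin-DA reaches 110.0 CPM for Dapma7bEVm028505_97075 and pool A holds 10.7 to 13.7 CPM.

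In the exposure of Metolachlor OA and 3,4-Dichlorophenyl isocyanate, a pair of probes varied strongly from pool to pool. At 6.677 µM of Metolachlor OA Dapma7bEVm001864_95957 held 90.4, 23.5 and 26.8 CPM, and Dapma7bEVm009659_96514 held 73.7, 18.1 and 36.7 CPM. In the DMSO pools of the exposure Dapma7bEVm001864_95957 stood at 6.64 ± 9.34 CPM (SD, n = 6; lowest 0, median 2.28, highest 23.4 CPM). Dapma7bEVm009659_96514 stood at 11.5 ± 15.7 CPM there (lowest 0, median 4.85, highest 39.4 CPM). The same DMSO pool, replicate B of XtraC, was the highest for both.

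Both probes of that pair were high in scattered pools of many treatments. Dapma7bEVm001864_95957 reached 10 CPM in 46 of its 283 other treated pools and held no count in 158 of them, and Dapma7bEVm009659_96514 reached it in 42 of 277 and held none in 149. Dapma7bEVm009659_96514 was also on with 3,4-Dichlorophenyl isocyanate at 2.113 µM, with 13.2, 61.4 and 26.5 CPM, and at 0.021 µM, with 11.2, 45.8 and 54.0 CPM. All 3 of its switch-ons overlapped with the DMSO pools. At the same 2 concentrations Dapma7bEVm001864_95957 fell short of the limit in pool A alone. It held 7.55, 83.7 and 50.5 CPM at 2.113 µM and 9.295, 59.1 and 55.6 CPM at 0.021 µM. Dapma7bEVm011091_96732 was on at 66.67 µM of 3,4-Dichlorophenyl isocyanate, where only 2 pools had to pass, with 17.2 and 10.97 CPM, against 6.18 ± 3.36 CPM in DMSO (SD, n = 6; highest pool 10.2 CPM).

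By the rule, cis-Nonachlordane switched on 3 probes at 0.669 µM and none at its 4 higher concentrations. Dapma7bEVm018305_95923 held 12.1, 16.7 and 12.1 CPM, against 1.15 ± 2.12 CPM in DMSO (SD, n = 6), of which 4 pools held none. Its means at 2.113, 6.677, 21.1 and 66.67 µM were 12.75, 7.98, 8.54 and 3.775 CPM. Dapma7bEVm020553_97976 held 13.3, 12.5 and 12.1 CPM, against 2.82 ± 2.73 CPM in DMSO. Dapma7bEVm011699_96033 held 21.8, 15.3 and 12.1 CPM, against 6.85 ± 2.93 CPM in DMSO with a highest pool of 10.7 CPM. At 2.113, 6.677, 21.1 and 66.67 µM its means were 15.2, 13.0, 8.57 and 12.9 CPM, each with a pool under 10 CPM. At 0.669 µM no treated pool of these 3 overlapped with the DMSO pools of the exposure. In other exposures the DMSO pools of all 3 probes reached 11.9 to 13.4 CPM. At 66.67 µM of 2-tert-Butyl-4-methoxyphenol Dapma7bEVm018305_95923 held 24.7, 40.9 and 9.93 CPM, short of the limit in pool C alone.

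The remaining switch-ons were of single probes. Dapma7bEVm023892_97474 held 33.1, 26.2 and 18.2 CPM at the lowest concentration of 4-Chlorophenyl methyl sulfoxide, 0.021 µM, against 4.40 ± 3.86 CPM in DMSO (SD, n = 6; highest pool 9.19 CPM). Its means were lower at the higher concentrations, with 8.06 CPM at 0.067 µM and 2.40 CPM at 66.67 µM. Dapma7bEVm018707_97513 held 12.0, 13.1 and 15.3 CPM at 10.83 µM of Fexofenadine, against 6.27 ± 5.91 CPM in DMSO, where the highest pool held 16.9 CPM, above all 3 treated ones. Dapma7bEVm021397_97783 was on at 21.1 µM of Metribuzin-DA, with 19.97, 13.3 and 10.2 CPM, against 7.76 ± 8.54 CPM in DMSO, and at 0.021 µM of Hydrochlorothiazide, with 15.3, 12.3 and 12.2 CPM, against 6.92 ± 5.51 CPM in DMSO. Both its switch-ons overlapped with their DMSO pools, of which the highest held 22.0 and 16.5 CPM. Pool A of Metribuzin-DA at 21.1 µM was a shallow library, with 250382 counts.

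A test that did not use the values of the choice asked whether other probes of the same genes moved too. Of the 24 genes, 6 had a further probe on the panel, 8 probes in all, which gave 13 pairs of such a probe and a switch-on. In 5 of these pairs, from 3 probes of 2 genes, the treated pools held 1 count in all, and they did not pass the filter on low counts. The 8 tested pairs, of 5 probes, all had fitted fold changes above 0, though that of Dapma7bEVm009530_96275 with Metribuzin-DA turned to a log2 value of -1.14 without the B pools and -0.023 with CON pools as the only controls; 1 was called and 2 had an unadjusted p under 0.05 in edgeR. Pairs of the same gene or treatment are not independent of each other. The share of all tested probes with a fold change above 0 was not computed.

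The called one was Dapma7bEVm027382_96336, a second probe of the gene of Dapma7bEVm027382_98071. At 66.67 µM of 2-tert-Butyl-4-methoxyphenol it held 16.5, 31.4 and 15.6 CPM, against 5.77 ± 3.73 CPM in DMSO (SD, n = 6; highest pool 10.2 CPM). All 3 treated pools lay above the DMSO pools, and the log2 fold change and its SE were 1.74 ± 0.59 (adjusted p = 0.0156, edgeR quasi-likelihood test with Benjamini-Hochberg adjustment). In that comparison 27.3% of the 1471 probes tested were called higher, so a single such call is not particular to the gene. The call was lost without the B pools, at a log2 fold change of 1.24 (adjusted p = 0.184, edgeR), and with the 3 CON pools as the only controls, at 1.47 (adjusted p = 0.0880). At 0.021 µM of Metolachlor OA, where 1.13% of probes were called higher, the same probe stood at 24.4 ± 8.84 CPM (n = 3), against 17.8 ± 10.9 CPM in DMSO (n = 6), and did not pass the test (log2 fold change 0.48 ± 0.48 SE).

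The other tested pairs did not pass. Dapma7bEVm011091_96085, a second probe of the gene of Dapma7bEVm011091_96732, held 260.7 and 283 CPM at 66.67 µM of 3,4-Dichlorophenyl isocyanate, against 161.4 ± 44.7 CPM in DMSO (SD, n = 6; highest pool 238 CPM). Both treated pools lay above the DMSO pools, at a log2 difference of 0.64 ± 0.24 (SE), with an adjusted p of 0.151 (edgeR, in a comparison that called 2.75% of probes higher). Dapma7bEVm000023_95867, of the gene of Dapma7bEVm000023_95812, stood at 20.5 ± 2.10 CPM at 66.67 µM of 2-tert-Butyl-4-methoxyphenol (n = 3), against 11.9 ± 5.15 CPM in DMSO (n = 6; log2 fold change 0.54 ± 0.33 SE).

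The gene of Dapma7bEVm009530_97988 had 2 further probes, each tested at 0.067 µM of both chemicals. With Metribuzin-DA, where 2.08% of probes were called higher, Dapma7bEVm009530_96275 held 4.56, 28.0 and 7.22 CPM, against 13.4 ± 2.69 CPM in DMSO (SD, n = 6), a log2 fold change of 0.16 ± 0.53 (SE). Its mean of 13.3 CPM was at the DMSO level, and pools A and C lay under the lowest DMSO pool, at 10.8 CPM. Dapma7bEVm009530_97946 held 4.56, 17.3 and 18.0 CPM there, against 8.32 ± 5.84 CPM in DMSO (0.75 ± 0.68). With 2-tert-Butyl-4-methoxyphenol, where 3.33% were called higher, their log2 fold changes were 0.40 ± 0.39 and 0.99 ± 0.58 (SE). In none of these 4 pairs did all treated pools lie above the DMSO pools, and pool A of Metribuzin-DA was the lowest for both probes.

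For probes on at the highest concentration and at no other of that chemical, the slope over the lower concentrations was also computed. There were 10 such pairs of probe and chemical. They were picked for falling short of 10 CPM in some pool at each of these lower concentrations, so the choice itself limits a rise there, and the slopes are a description and no independent evidence. Over the 7 lower concentrations, without DMSO, 0 of the 10 passed the filter on low counts, so the planned edgeR trend test says nothing about them; it called 0.693% of the probes that passed for 2-tert-Butyl-4-methoxyphenol, 7.3% for 3,4-Dichlorophenyl isocyanate and 0% for Hydrochlorothiazide. Without that filter 0 of 10 were called and 0 had an unadjusted p under 0.05, and 5 of the 10 slopes were above 0. In the same unfiltered tests 0.396% of 2273 probes were called for 2-tert-Butyl-4-methoxyphenol, 3.89% of 2209 for 3,4-Dichlorophenyl isocyanate and 0% of 2226 for Hydrochlorothiazide. DESeq2 had 0 of the 10 to test after the filter. Slopes ran from a log2 change of -0.15 ± 0.09 per level for Dapma7bEVm003956_96116 with Hydrochlorothiazide to 0.27 ± 0.20 for Dapma7bEVm027575_97606 with 2-tert-Butyl-4-methoxyphenol (SE). Dapma7bEVm003956_96116 stood at 0.19 ± 0.12 per level with the same chemical.

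A further question was whether the probes differed between the 6 exposures in DMSO alone. The rule used the overall mean of these same DMSO pools, and not directly how it divided among exposures. It also asked for a high level in every pool of a treatment, and each treatment lay within an exposure. A probe with a raised level throughout an exposure could meet that limit more easily there. The calls and adjusted p-values between exposures are therefore not independent of the choice. None of the 24 passed the filter on low counts over the 36 DMSO pools (the test called 71% of the 1397 probes that did). Without the filter 7 of the 24 were called, 10 had an unadjusted p under 0.05, and 43.7% of all 2253 probes were called. The exposures were run apart, and exposure and run cannot be told apart.

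DMSO means over 5 CPM in single exposures were seen in probes that were called between exposures and in probes that were not. Dapma7bEVm011699_96033 stood at 8.50 ± 3.73 CPM in the exposure of Cetirizine and Fipronil amide and at 0.392 ± 0.961 CPM in that of 1(2H)-Phthalazinone and Gabapentin (SD, n = 6 each; adjusted p = 2.11e-05 over the 6 exposures, edgeR without the filter). Dapma7bEVm028301_96390 stood at 10.9 ± 5.85 CPM in the exposure in which it was switched on, and at 2.08 to 5.22 CPM in the other ones (adjusted p = 0.00635). Dapma7bEVm027382_98071 had its highest DMSO mean, 9.43 CPM, in the exposure of Metolachlor OA and its lowest, 1.85 CPM, in that of 2-tert-Butyl-4-methoxyphenol, and it was on in both (adjusted p = 0.00264). Dapma7bEVm003956_96116 had its lowest DMSO mean, 0.700 CPM, in the exposure of 3,4-Dichlorophenyl isocyanate and its highest, 8.70 CPM, in that of cis-Nonachlordane and Fexofenadine (adjusted p = 0.0185). The other calls were Dapma7bEVm027575_97606, Dapma7bEVm018305_95923 and Dapma7bEVm020553_97976.

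The control QA libraries, whose content is not stated, gave a further reading that had no part in the choice. Over the 12 of them the means of the 24 probes ran from 0.342 to 9.07 CPM, and 16 of the 24 stayed under 5 CPM. For 13 of the 24 the mean was higher in control QA libraries than in DMSO pools, and for 8 at least 1 of these libraries reached 10 CPM. The choice by a low DMSO mean favours a higher mean in other libraries. The shares of all nearly silent probes in these counts were not computed. Dapma7bEVm011699_96033 had the highest mean, with 9.07 ± 4.40 CPM (SD, n = 12), and 6 of its 12 libraries reached 10 CPM. Dapma7bEVm002904_97716 followed with 8.01 ± 4.37 CPM. Dapma7bEVm020579_98033 held no count in 10 of the 12 libraries, Dapma7bEVm012204_97889 in 8 and Dapma7bEVm019556_96084 in 6.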

How the data were processed

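TempO-Seq libraries of whole Daphnia magna were counted per probe. The authors deposited 1 table of raw counts for the whole series, in whole numbers per the file headers and values, with no scaling; columns matched to no sample numbered 0. They also deposited tables of log2 values per chemical, which served here only for the concentration line. For 3,4-Dichlorophenyl isocyanate 11 columns of that table, listed as a score, hold counts under the concentration line, as deposited. Of upstream tools, the submitters' processing notes list bcl2fastq without a version; no aligner is given in the sources used here. That table's line is shifted by 1 column for pools C, so concentrations there came from pools A and B. The highest concentration of Fexofenadine is that of its table, which differs from the exposure protocol. The labels write sulfoxide where the design text writes sulfone.

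CPM is 1000000 times the count over the library total, unscaled otherwise. All 24 probes are named. The members and lists were chosen with earlier results of these data known. Other probes of the same genes, the trend without the highest concentration and the DMSO pools between exposures were tested on counts with edgeR 4.0.16 under R 4.3.3, using TMM scaling, filterByExpr, the quasi-likelihood F test and Benjamini-Hochberg adjustment over all probes tested at 0.05. A fit held 1 chemical and its exposure's 6 DMSO pools; DESeq2 1.42.0 was an alternative. The rest was done in Python 3.11.15 with pandas 2.3.3, scipy 1.17.1 and matplotlib 3.10.9. The edgeR tests alone were tried on simulated counts. The changed probes there were drawn from those with higher counts, so probes as faint as the 24 were not covered. Pools of 1 concentration come from separate plates with separate animals, per the labels' protocols. No sequence or genome position of these probes was used here.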

Additional observations from a re-analysis of the deposited data

Results flagged for a closer look

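In 1 of 30 sets of DMSO pools examined for a pool far from the rest, a single pool stood apart. Dapma7bEVm018305_95923, a probe switched on by cis-Nonachlordane at 0.669 µM, held 5.27 CPM in replicate A of the XtraC pools of that exposure, while the nearest of the 5 other DMSO pools held 1.60 CPM and 4 held none. Chance flags about 1 in 20 such sets where values follow a normal distribution, which counts this low need not do. The 3 treated pools, at 12.1 CPM or more, lay above this pool as well.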

How the results depend on the processing

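The number of probes depended on the limits. With a DMSO mean under 2 CPM there were 3 probes and 4 switch-ons, and under 10 CPM 109 and 509. With 20 CPM in every pool there were 7 and 9, and with 5 CPM 123 and 506. Where the DMSO mean of the same exposure also had to be under 5 CPM, 13 probes and 18 switch-ons were left. Leaving out 1 replicate letter gave 40 to 83 probes and 71 to 132 switch-ons, of which 19 to 22 of the 24 probes and 29 to 31 of the 37 switch-ons were shared; fewer pools make the rule easier to meet by construction. TMM-scaled totals or a minimum of 5 counts gave 24 probes and 37 switch-ons, and keeping the left-out library 24 and 36. Leaving out libraries under 50% of their exposure's median total, an alternative chosen after seeing the data, gave 29 and 48. Here too the treatments concerned keep fewer pools, which makes the rule easier to meet by construction. TMM scaling moved 3 of 37 means by more than their SD, all at 66.67 µM of 2-tert-Butyl-4-methoxyphenol.

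Other probes of the same genes gave 1 call in edgeR, 0 against the CON pools alone, and 0 to 1 with 1 replicate left out. The log2 fold change of Dapma7bEVm009530_96275 at 0.067 µM of Metribuzin-DA, 0.16, was -0.023 against the CON pools alone and -1.14 to 0.66 with 1 replicate left out; the cause was not tested. Between exposures in DMSO, 7 probes were called without the filter and 0 could be tested with it. Same-letter pools correlated on average 0.0134 (Metribuzin-DA) to 0.301 (Metolachlor OA) in their deviations, with single pairs below 0, so a pairing by letter was neither shown nor excluded, and the fits without it are reported. With the replicate letter as a block 1 other probe was called, Dapma7bEVm027382_96336 at a log2 fold change of 1.74 (adjusted p = 0.0192, edgeR), and the other 7 fold changes kept their sign. In most switch-ons the poorest pool held only 5 to 14 counts, which limits how far they can be read.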
